A study of Mus musculus with 6 samples.

Results

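The genes described here are 10 members of the transforming growth factor beta (TGF-β) pathway: the ligand *Tgfb1*, the receptors *Tgfbr1* and *Tgfbr2*, the co-receptors *Tgfbr3* and *Eng*, the signal transducers *Smad2*, *Smad3* and *Smad4*, the inhibitor *Smad7*, and the corepressor *Ski*. They were chosen by symbol, and all 10 were found among the 26264 genes of the deposited table. Gene expression was measured by bulk RNA-seq in hematopoietic stem cells (HSCs, sorted as Lin- Sca-1+ c-Kit+ CD150+ CD48- cells) from the bone marrow of untreated mice 8 weeks old. The groups were 3 C57Bl/6 wild-type (WT) mice and 3 *Irf1-/-* mice (B6.129S2-Irf1 tm1Mak/J), which lack the transcription factor IRF1 in every cell of the body from birth, so that HSCs and their surroundings carried the same deletion. Each library came from 1 mouse, and libraries are given by the replicate numbers 2, 3 and 4 of their labels. Between 43138521 and 59658080 reads were counted on genes per library.

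TGF-β1 is secreted in a latent form and, once released, binds the type II receptor TGFBR2, which recruits and phosphorylates the type I receptor TGFBR1. The active complex phosphorylates SMAD2 and SMAD3, which enter the nucleus with SMAD4 and regulate target genes, while SMAD7 blocks the type I receptor and is itself induced by the pathway. In bone marrow, TGF-β is known as a signal that holds HSCs in quiescence.

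The targeted gene, *Irf1*, had normalized counts of 9267, 9524 and 9287 in *Irf1-/-* HSCs (replicates 2, 3 and 4) and of 10122, 11120 and 12058 in WT HSCs. All *Irf1-/-* libraries lay below all WT libraries, but reads on the gene remained. A count over the whole gene does not show whether the disrupted part is transcribed, so these values are a weak check of the genotype labels. The HSC label was checked against 9 HSC markers, all of which were detected. *Kit*, the most abundant of them, had between 77902 and 88715 normalized counts per library, while *Cd48*, whose protein the gate selects against, had between 257 and 431.

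Normalized counts are read counts divided by 1 size factor per library. The 17404 genes whose normalized count averaged 10 or more were tested with limma, after adding 1 and taking log2. Fold changes are *Irf1-/-* over WT. Genes were called when the log2 fold change was beyond 0.58 in either direction and the adjusted *P* was less than 0.05. All 10 members passed the filter. limma called 1 member higher in *Irf1-/-* HSCs, *Smad7*, where 0.96% of all tested genes were called higher. It called 0 members lower, where 0.954% of all tested genes were called lower, and both edgeR and DESeq2 also called 1 member higher and 0 lower. At an unadjusted *P* under 0.05, limma had 2 members higher (*Smad7* and *Tgfbr2*; 8.38% of all tested genes) and 1 lower (*Tgfb1*; 8.07% of all tested genes). The median log2 fold change was 0.07 over the members and −0.0028 over all tested genes. In 3 members all *Irf1-/-* libraries lay above all WT libraries (*Tgfbr2*, *Eng* and *Smad7*; 10.6% of all tested genes), and in 1 they lay below them (*Tgfb1*; 9.27% of all tested genes).

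*Tgfb1*, which encodes the ligand, had 7845, 8812 and 7291 normalized counts in WT HSCs (replicates 2, 3 and 4) and 6607, 5485 and 6471 in *Irf1-/-* HSCs. The lowest WT library, replicate 4, was above the highest *Irf1-/-* library, replicate 2. On average *Irf1-/-* HSCs had 77.5% of the WT level, and the log2 fold change was −0.37 (95% interval −0.58 to −0.15, adjusted *P* = 0.0681, limma), which did not pass the threshold. An exact permutation test (two-sided) gave *P* = 0.1, which is the minimum for 3 mice a group. In bulk RNA, fewer cells of a type and less RNA per cell cannot be told apart.

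*Tgfbr2*, the type II receptor that binds the ligand first, had its higher values in *Irf1-/-* HSCs. Its normalized counts were 6087, 5006 and 5541 in WT HSCs and 6882, 6768 and 7193 in *Irf1-/-* HSCs. The *Irf1-/-* libraries lay close together and all above WT replicate 2, the highest WT library. The mean was 125% of the WT mean (log2 fold change 0.33, 95% interval 0.13 to 0.53, adjusted *P* = 0.0737, limma; exact permutation *P* = 0.1), and the gene was not called.

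*Tgfbr1*, the type I receptor that carries the signal to the SMADs, had 2605, 1899 and 2358 normalized counts in WT HSCs and 2342, 2624 and 2339 in *Irf1-/-* HSCs. WT replicate 3 held the lowest value and *Irf1-/-* replicate 3 the highest, and the genotypes overlapped. The log2 fold change was 0.10 (95% interval −0.16 to 0.36, adjusted *P* = 0.767, limma). It was 0.05 with *Irf1-/-* replicate 3 left out, 0.20 with WT replicate 2 left out and −0.03 with WT replicate 3 left out.

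The co-receptors present ligand to the receptor pair and lack kinase activity of their own. *Eng*, which encodes endoglin, had 12391, 12537 and 11492 normalized counts in WT HSCs and 12605, 13425 and 13729 in *Irf1-/-* HSCs. The genotypes did not overlap, although WT replicate 3 and *Irf1-/-* replicate 2 nearly met. The log2 fold change was 0.13 (95% interval −0.05 to 0.31, adjusted *P* = 0.517, limma). *Eng* overlaps *Fpgs* in the mouse gene table used for names, and since the counting was not stated to use strand, reads in shared sequence could belong to either gene. *Fpgs* had between 2408 and 3354 normalized counts, with overlapping genotypes.

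*Tgfbr3*, or betaglycan, had 7574, 7305 and 6450 normalized counts in WT HSCs and 8314, 6388 and 7020 in *Irf1-/-* HSCs. Both the highest and the lowest library were *Irf1-/-*, replicates 2 and 3. The log2 fold change was 0.02 (95% interval −0.21 to 0.25, adjusted *P* = 0.958, limma), and it lay between −0.08 and 0.11 when any 1 library was left out.

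The SMAD transducers differed little between genotypes. *Smad2*, which the receptor phosphorylates, ranged from 4404 to 5262 normalized counts in WT HSCs and from 4641 to 5282 in *Irf1-/-* HSCs (log2 fold change −0.01, 95% interval −0.22 to 0.20). *Smad3*, the other receptor substrate, ranged from 3614 to 4440 in WT HSCs and from 3978.5 to 4653 in *Irf1-/-* HSCs (log2 fold change 0.04, 95% interval −0.18 to 0.27). *Smad4*, the partner shared with the bone morphogenetic protein (BMP) branch, ranged from 8914 to 9822.5 in WT HSCs and from 9053 to 10002 in *Irf1-/-* HSCs (log2 fold change 0.02, 95% interval −0.16 to 0.20). Each of these ranges overlapped the other genotype's, and limma's adjusted *P* was 0.988 for *Smad2*, 0.901 for *Smad3* and 0.948 for *Smad4*. The intervals allow differences of up to about the sizes they give, so equal expression was not shown. When any 1 library was left out, the log2 fold change lay between −0.09 and 0.04 for *Smad2*, between −0.04 and 0.11 for *Smad3* and between −0.02 and 0.06 for *Smad4*.

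*Smad7*, the inhibitory SMAD that binds the type I receptor and recruits ubiquitin ligases to it, was the member that was called. It had 673, 554.5 and 598 normalized counts in WT HSCs (replicates 2, 3 and 4) and 952, 795 and 1058 in *Irf1-/-* HSCs. The lowest *Irf1-/-* library, replicate 3, was above the highest WT library, replicate 2, and replicate 4 was the highest. The means were 609 ± 60.0 in WT and 935 ± 132 in *Irf1-/-* HSCs (SD, n = 3), a ratio of 1.54. The log2 fold change was 0.61 (SE 0.150, 95% interval 0.29 to 0.93, adjusted *P* = 0.0405, limma; exact permutation *P* = 0.1, with all 3 *Irf1-/-* libraries higher). Between 492 and 1019 reads stood behind these values, the smallest number for any member.

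The call of *Smad7* varied with the libraries and the fit used. Fits with a library left out had fewer mice and so less power. The call held without *Irf1-/-* replicate 3 (log2 fold change 0.725, adjusted *P* = 0.0306, limma). It was lost without *Irf1-/-* replicate 2 (log2 fold change 0.59, adjusted *P* = 0.137), without *Irf1-/-* replicate 4 (0.52, adjusted *P* = 0.212), without WT replicate 2 (0.69, adjusted *P* = 0.0571), without WT replicate 3 (0.55, adjusted *P* = 0.153) and without WT replicate 4 (0.60, adjusted *P* = 0.0508), each from limma. limma without the trend in the prior variance (adjusted *P* = 0.238) and without the filter on low values (adjusted *P* = 0.219) did not call it either. Principal component 1 (32.4% of the variance over tested genes) set *Irf1-/-* replicates 2 and 4, the highest libraries for *Smad7*, and WT replicate 4 apart from the other 3 libraries. With a term for this split, chosen after seeing the data, limma did not call *Smad7* (0.56, adjusted *P* = 0.0606). edgeR (adjusted *P* = 0.0374) and DESeq2 (adjusted *P* = 0.00223) did, and over all alternatives the log2 fold change was between 0.52 and 0.73 and the adjusted *P* between 0.00223 and 0.238.

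*Ski* encodes a corepressor that binds SMAD complexes on DNA and silences their targets. It had 5310, 5894 and 5182 normalized counts in WT HSCs and 5650.0, 5780 and 6298 in *Irf1-/-* HSCs. WT replicate 3 lay within the *Irf1-/-* range. The log2 fold change was 0.11 (95% interval −0.08 to 0.31, adjusted *P* = 0.610, limma), and 0.07 when *Irf1-/-* replicate 4 was left out.

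To compare levels between genes, normalized counts were divided by the length of the longest coding transcript of each gene. In WT HSCs the order of this level per kb was *Tgfb1* (3670 ± 354, SD, n = 3), *Eng* (3399 ± 159), *Smad4* (2788 ± 138), *Smad2* (1734 ± 167), *Tgfbr3* (1168 ± 96.4), *Ski* (989 ± 68.7), *Smad3* (803 ± 83.6), *Tgfbr2* (686 ± 66.8), *Tgfbr1* (397 ± 62.2) and *Smad7* (142 ± 14.0). Of the neighbours in this order, the libraries overlapped between *Tgfb1* and *Eng*, between *Tgfbr3* and *Ski*, and between *Smad3* and *Tgfbr2*. The ligand's level per kb was at the percentile 91.5 of 13862 tested genes that had a length, and that of *Smad7* at the percentile 37.7. In *Irf1-/-* HSCs the order of the level per kb differed at 2 places. *Eng* (3710 ± 163) stood above *Tgfb1* (2845 ± 282) with no overlap between their libraries, and *Tgfbr2* (859 ± 27.2) stood above *Smad3* (827 ± 75.5) with overlap. In *Irf1-/-* HSCs the libraries of *Tgfb1* also overlapped those of *Smad4* (2828 ± 142), the next in order, and those of *Tgfbr3* overlapped those of *Ski*. Transcripts shorter than the one used would raise a gene in this order.

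Ratios of members within a library do not depend on how libraries were scaled. The log2 ratio of *Smad7* to *Tgfbr1*, the receptor it inhibits, was −1.95, −1.78 and −1.98 in WT HSCs (replicates 2, 3 and 4) and −1.30, −1.72 and −1.15 in *Irf1-/-* HSCs. The genotypes did not overlap, but *Irf1-/-* replicate 3 lay close to WT replicate 3. The difference between means was 0.51 on the log2 scale (exact two-sided permutation *P* = 0.1, 0.5 after adjustment over 5 ratios).

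The other 4 log2 ratios overlapped between genotypes. That of *Tgfbr1* to *Tgfbr2*, the type I to the type II receptor, was −1.29 ± 0.10 in WT HSCs and −1.51 ± 0.13 in *Irf1-/-* HSCs (SD, n = 3; exact permutation *P* = 0.2, adjusted 0.5). The differences in log2 ratio, *Irf1-/-* minus WT, were −0.05 for *Smad2* to *Smad3*, 0.09 for *Ski* to *Smad4*, and 0.11 for *Eng* to *Tgfbr3*. Single libraries set much of these differences, which were 0.065 for *Smad2* to *Smad3* and 0.007 for *Ski* to *Smad4* without *Irf1-/-* replicate 4, and for *Eng* to *Tgfbr3* 0.245 without *Irf1-/-* replicate 2 and 0.010 without *Irf1-/-* replicate 3. For *Smad2* to *Smad3* the ratios of *Irf1-/-* HSCs spread more widely than those of WT HSCs, from −0.004 in replicate 4 to 0.41 in replicate 3.

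Beyond the members, 134 genes of 9 lists of the wider pathway were examined, of which 118 were tested. The lists were chosen with earlier results of these data known, so shares over all tested genes are given for scale and test nothing. limma called 5 higher and 0 lower (beside 0.96% and 0.954% of all tested genes), and edgeR called the same numbers, while DESeq2 called 6 higher and 1 lower. At an unadjusted *P* under 0.05, limma had 19 higher and 7 lower, where 8.38% and 8.07% of all tested genes were. In 22 of the 118 all *Irf1-/-* libraries lay above all WT libraries, and in 11 below, beside 10.6% and 9.27% of all tested genes. The median log2 fold change was 0.07, beside −0.0028 over all tested genes. The 5 genes called by limma were *Mmp2*, *Mmp14*, *Bmp4*, *Tgfbi* and *Sparc*. All 5 were also among the genes that the study picked from these libraries, so their calls are not independent evidence.

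Among 15 genes for TGF-β ligands and their release from latency, all tested, limma called 2 higher and 0 lower (beside 0.96% and 0.954% of all tested genes). The list's median log2 fold change was 0.24. At an unadjusted *P* under 0.05 limma had 5 higher and 2 lower, where 8.38% and 8.07% of all tested genes were. The lower genes, named after their values were seen, were *Ltbp1* and *Itgb6*. *Ltbp1* (log2 fold change −0.76, adjusted *P* = 0.186, limma) did not overlap between genotypes, and *Itgb6* (−0.69, adjusted *P* = 0.211) did. *Mmp2*, a gelatinase that can release latent TGF-β, had 794, 503 and 1009 normalized counts in WT HSCs and 2046, 1441 and 2027 in *Irf1-/-* HSCs (log2 fold change 1.30, adjusted *P* = 0.00414, limma). *Mmp14*, the membrane-bound protease that activates MMP2, had between 1451 and 1559 in WT HSCs and between 2173 and 2565 in *Irf1-/-* HSCs (log2 fold change 0.67, adjusted *P* = 0.00286, limma). Both genes had no overlap between genotypes. limma did not call them without the filter on low values (adjusted *P* = 0.249 for *Mmp2* and 0.0724 for *Mmp14*) or without the trend (0.238 and 0.105), and over all alternatives the adjusted *P* was between 5.79e-08 and 0.249 for *Mmp2* and between 2.2e-07 and 0.105 for *Mmp14*. *Ltbp3*, which tethers latent TGF-β to the matrix, had between 6933.5 and 7080 normalized counts in WT HSCs and between 8584 and 9017 in *Irf1-/-* HSCs. Its log2 fold change of 0.33 (adjusted *P* = 0.0407, limma) was below the fold change threshold. Its adjusted *P* was between 0.00276 and 0.238 over all alternatives, and 0.112, 0.0612 and 0.214 without *Irf1-/-* replicates 2, 3 and 4 and 0.144 and 0.115 without WT replicates 2 and 3. At any fold change, 3.22% of all tested genes had an adjusted *P* under 0.05.

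Of 17 genes for BMP, activin and growth differentiation factor (GDF) ligands, 11 were tested. limma called 1 higher and 0 lower (beside 0.96% and 0.954% of all tested genes), and the list's median log2 fold change was 0.11. *Bmp4*, a ligand of the BMP branch, had 86.4, 76.6 and 118 normalized counts in WT HSCs and 224, 301 and 194 in *Irf1-/-* HSCs. The mean rose to 255% of the WT mean (log2 fold change 1.34, adjusted *P* = 0.0200, limma). It was no longer called when *Irf1-/-* replicate 2 was left out (1.38, adjusted *P* = 0.0708), nor without *Irf1-/-* replicate 3 (1.17, adjusted *P* = 0.0754), without WT replicate 2 (1.30, adjusted *P* = 0.0529) and without WT replicate 3 (1.21, adjusted *P* = 0.0772), nor by limma without the filter on low values (adjusted *P* = 0.175) or the trend (0.158), while over all alternatives the adjusted *P* was between 0.000111 and 0.175. *Gdf3* (log2 fold change −0.26, adjusted *P* = 0.240, limma) and *Bmp7* (0.77, adjusted *P* = 0.404) were not called, and their genotypes overlapped. For *Bmp7* the value was 0.49 without *Irf1-/-* replicate 2, 0.42 without WT replicate 2 and 1.21 without WT replicate 3.

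Receptors of the activin and BMP branches were covered by 13 genes, of which 12 were tested. limma, edgeR and DESeq2 called 0 of them, 1 was higher at an unadjusted *P* under 0.05 in limma (beside 8.38% of all tested genes), and the list's median log2 fold change was 0.04. *Acvr2a*, a type II activin receptor, had between 586 and 825 normalized counts in WT HSCs and between 799 and 1104 in *Irf1-/-* HSCs (log2 fold change 0.47, adjusted *P* = 0.149, limma). The type I activin receptor *Acvr1b* (0.42, adjusted *P* = 0.415) and the anti-Müllerian hormone receptor *Amhr2* (1.53, adjusted *P* = 0.441) also overlapped between genotypes, and *Amhr2* was near the limit of detection in WT HSCs, with 1.13 to 17.2 normalized counts. Leaving out *Irf1-/-* replicate 2 gave *Acvr1b* a log2 fold change of 0.27. Leaving out WT replicate 3 gave *Amhr2* a log2 fold change of 0.77, and leaving out WT replicate 4 gave 2.32.

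Of the 4 other SMADs, 3 were tested. limma, edgeR and DESeq2 called 0 of these, and 0 had an unadjusted *P* under 0.05 in limma. *Smad1* (log2 fold change 0.17, adjusted *P* = 0.450, limma) and *Smad5* (0.09, adjusted *P* = 0.727), which transmit BMP signals, and *Smad6* (0.31, adjusted *P* = 0.410), the inhibitory SMAD of that branch, overlapped between genotypes. For *Smad1* the value was 0.08 when *Irf1-/-* replicate 3 was left out, and for *Smad5* it was 0.17 with WT replicate 2 left out and 0.02 with WT replicate 4 left out. The median log2 fold change was 0.17.

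SMAD corepressors and DNA-binding partners were 17 genes, all tested, of which limma and edgeR called 0. DESeq2 called 0 higher and 1 lower, and at an unadjusted *P* under 0.05 limma had 3 higher and 1 lower (beside 8.38% and 8.07% of all tested genes). The gene called by DESeq2 was *Zbtb16*, a zinc finger repressor, which had between 553 and 606 normalized counts in WT HSCs and between 308 and 474 in *Irf1-/-* HSCs (log2 fold change −0.63, adjusted *P* = 0.0834 in limma; adjusted *P* between 0.0173 and 0.304 over all alternatives). *Cited2*, a transcriptional co-regulator needed for HSC maintenance, had between 9242 and 10235 in WT HSCs and between 11782.5 and 14572 in *Irf1-/-* HSCs (log2 fold change 0.41, adjusted *P* = 0.0318, limma), below the fold change threshold. Its adjusted *P* was between 0.00155 and 0.289 over all alternatives, and 0.137, 0.0511 and 0.0532 without *Irf1-/-* replicates 2, 3 and 4 and 0.112 without WT replicate 2. *Mecom*, an HSC transcription factor whose EVI1 protein binds SMAD3, also had no overlap (log2 fold change 0.30, adjusted *P* = 0.101, limma). In this list 2 genes (*Mecom* and *Cited2*) were higher and 4 (*Zbtb16*, *Tgif2*, *Sp1* and *Zeb1*, the last 3 named after their values were seen) lower with no overlap between genotypes, beside 10.6% and 9.27% of all tested genes, and the median log2 fold change was −0.0035.

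limma, edgeR and DESeq2 called 0 genes of 3 further lists. Of 14 ubiquitin and phosphatase regulators, all tested, 1 was higher (*Smurf1*) and 1 lower (*Uchl5*) at an unadjusted *P* under 0.05 in limma (beside 8.38% and 8.07% of all tested genes). *Smurf1*, a ubiquitin ligase that SMAD7 brings to the receptor, had between 2122 and 2329 normalized counts in WT HSCs and between 2587 and 2800 in *Irf1-/-* HSCs (log2 fold change 0.30, adjusted *P* = 0.112, limma). *Uchl5*, a deubiquitinase (−0.26, adjusted *P* = 0.266), and *Stub1*, a ubiquitin ligase (−0.20, adjusted *P* = 0.426), overlapped between genotypes. Without WT replicate 3 the log2 fold change of *Uchl5* was −0.16, and leaving out WT replicate 4 gave −0.395 (adjusted *P* = 0.0317, limma; between 0.0317 and 0.658 over all alternatives). The list's median log2 fold change was 0.04.

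Of 17 receptor adaptors and inhibitors, 13 were tested, with a median log2 fold change of 0.10. At an unadjusted *P* under 0.05 limma had 0 higher and 1 lower (beside 8.38% and 8.07% of all tested genes). The lower gene was *Strap*, a receptor-associated inhibitor that acts with SMAD7, with between 8897 and 10499 normalized counts in WT HSCs and between 7782 and 8398 in *Irf1-/-* HSCs (log2 fold change −0.24, adjusted *P* = 0.187, limma). *Bambi*, a pseudoreceptor (0.26, adjusted *P* = 0.387), and *Tgfbrap1*, a receptor-associated protein (0.21, adjusted *P* = 0.399), were higher in all 3 *Irf1-/-* libraries but not called. Of 14 genes of the non-SMAD branch, all tested, 0 were higher and 1 lower at an unadjusted *P* under 0.05 in limma (beside the same shares), with a median log2 fold change of −0.02. The lower gene was the small GTPase *Rhoa* (log2 fold change −0.22, adjusted *P* = 0.199, limma), beside *Xiap* (−0.24, adjusted *P* = 0.470) and the kinase gene *Map3k7* (−0.11, adjusted *P* = 0.688). For *Map3k7* the value was −0.03 with WT replicate 3 left out and −0.21 with WT replicate 4 left out.

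Known TGF-β target genes were 30, of which 26 were tested. limma called 2 higher and 0 lower (beside 0.96% and 0.954% of all tested genes), with 11 higher and 0 lower at an unadjusted *P* under 0.05 (beside 8.38% and 8.07%), and the median log2 fold change was 0.19. Because this list was chosen with earlier results of these data known, its counts are not independent evidence. Some of its genes, such as *Ltbp3*, *Smurf1* and *Bambi*, also stand in other lists. In 13 of the tested targets all *Irf1-/-* libraries lay above all WT libraries, and in 1 (*Id3*, named after its values were seen) they lay below, beside 10.6% and 9.27% of all tested genes. edgeR called 2 targets higher and DESeq2 3, the additional one being *Cdkn1a*, which falls outside the rule for named genes.

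*Tgfbi*, a secreted matrix protein named for its induction by TGF-β, had 1283, 1483 and 1240.4 normalized counts in WT HSCs and 2584, 2143 and 2616 in *Irf1-/-* HSCs. Every *Irf1-/-* library was above every WT library (log2 fold change 0.87, SE 0.117, adjusted *P* = 0.000945, limma). *Sparc*, a collagen-binding matrix protein, had 61.7, 134 and 111 in WT HSCs and 390.2, 259 and 305 in *Irf1-/-* HSCs (log2 fold change 1.68, adjusted *P* = 0.00850, limma). Without *Irf1-/-* replicate 2 the call of *Sparc* was lost (1.52, adjusted *P* = 0.0614; between 2e-06 and 0.2 over all alternatives). Of the other genes that limma called in these lists, *Mmp2*, *Mmp14* and *Tgfbi* stayed called whichever single library was left out, and *Bmp4* did not. None of the 5 was called by limma without the filter on low values (for *Tgfbi*, adjusted *P* = 0.1; for *Sparc*, 0.2) or without the trend in the prior variance (0.105 and 0.187), while edgeR without the filter called all 5, and over all alternatives the adjusted *P* of *Tgfbi* was between 5.54e-10 and 0.105.

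**Figure D1:**
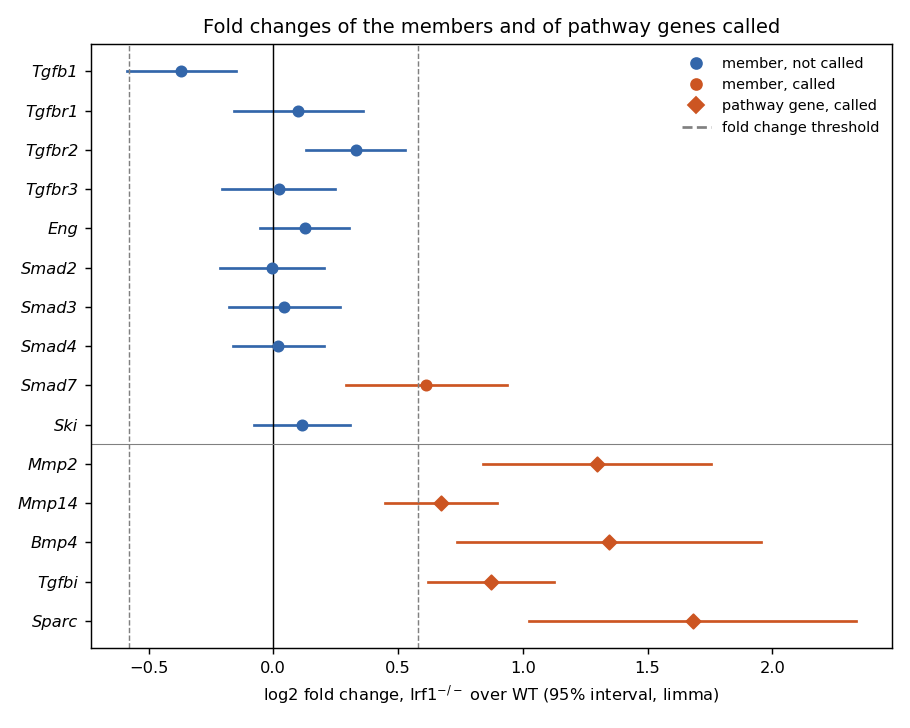
Log2 fold changes, *Irf1-/-* over WT, with 95% intervals from limma (n = 3 a genotype) for the 10 members (circles) and the 5 pathway genes called (diamonds). Dashed lines mark the threshold of 0.58 in either direction. *Smad7*, at 0.61, lay just past the threshold, and the other members lay inside it.

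The genes most like a member were sought among 12068 genes whose normalized count averaged 100 or more, by the root mean square difference over the 6 libraries of log2 values centred on each gene's mean. Closest to *Smad7*, the member with the highest log2 fold change, were *Gm14317* (difference 0.046), *Anpep* (0.059) and *Rab6b* (0.071). Closest to *Tgfb1*, the member with the lowest, were *Flt3l* (0.038), *Coq10b* (0.046) and *Hmbox1* (0.053). *Flt3l*, which encodes the ligand of the receptor FLT3, had 1191, 1380.5 and 1095 normalized counts in WT HSCs and 966, 861 and 961 in *Irf1-/-* HSCs, and like *Tgfb1* it was highest in WT replicate 3 and lowest in *Irf1-/-* replicate 3.

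Markers of other cells and of the cell cycle also differed between genotypes. Of 7 megakaryocyte genes, 6 were tested and limma called 2 lower (*Pf4* and *Gp1bb*; 0.954% of all tested genes). Their summed normalized counts were 58862, 71526 and 56833 in WT HSCs and 51526, 33798 and 46290.0 in *Irf1-/-* HSCs, with *Itga2b* the most abundant, and no gene of the list was at 0. The platelet factor gene *Pf4* had 7660.5, 6788 and 7496 in WT HSCs and 4605, 2337 and 3627 in *Irf1-/-* HSCs. *Irf1-/-* replicate 3, the lowest library for *Tgfb1*, was also the lowest for this sum, and WT replicate 3 the highest for both.

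Of 6 proliferation genes, all were tested and 3 were called lower (*Mki67*, *Top2a* and *Aurkb*; 0.954% of all tested genes). Their sums were 39962, 40423 and 30249 in WT HSCs and 27128.5, 27638 and 17522 in *Irf1-/-* HSCs, with *Top2a* the most abundant and none at 0. Here *Irf1-/-* replicate 4, the highest library for *Smad7*, was the lowest. Of 6 erythroid genes, 4 were tested and 1, *Klf1*, was called lower (beside the same 0.954% of all tested genes). The sums were 3755, 4315 and 3064 in WT HSCs and 2959, 2438 and 2786 in *Irf1-/-* HSCs, with *Epor* the most abundant and the globin genes *Hbb-bt* and *Hba-a1* at 0 reads in all libraries.

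Of 7 endothelial genes, all were tested and 0 were called by limma, edgeR or DESeq2. At an unadjusted *P* under 0.05 limma had 4 higher and 1 lower (beside 8.38% and 8.07% of all tested genes). The sums of the 7 genes did not overlap, at 14300, 14041 and 13830 in WT HSCs and 17579, 16817 and 18562 in *Irf1-/-* HSCs. *Tek*, which HSCs also express, was the most abundant, while *Cdh5*, the defining endothelial gene, had at most 29.0 normalized counts in any library. *Emcn*, which encodes the sialomucin endomucin and was named after its values were seen, had between 1280.2 and 1461 in WT HSCs and between 2010.5 and 2224 in *Irf1-/-* HSCs (log2 fold change 0.576, adjusted *P* = 0.0101, limma), just below the fold change threshold. Of the 9 HSC markers, limma called 1 higher (*Fgd5*; 0.96% of all tested genes). *Fgd5* had 3918, 3818 and 3522 normalized counts in WT HSCs and 6752, 6881 and 6387 in *Irf1-/-* HSCs. *Ly6a*, which encodes the gate marker Sca-1, had its lower values in *Irf1-/-* HSCs, with 4974, 6047 and 5376 normalized counts against 6908, 7439 and 7692 in WT HSCs (log2 fold change −0.43, adjusted *P* = 0.0245, limma), and *Procr* its higher values (0.52, adjusted *P* = 0.0112, limma), both below the fold change threshold. In the marker lists for B, T, NK, myeloid, stromal and macrophage cells, limma, edgeR and DESeq2 called 0 genes. At an unadjusted *P* under 0.05 limma had 1 higher and 1 lower in these lists (beside 8.38% and 8.07% of all tested genes). Single libraries stood apart for 3 genes named after their values were seen. WT replicate 4 had 1033 normalized counts of *S100a8* and 1246 of *S100a9*, neutrophil genes that had at most 110.0 and 131 in the other libraries, and WT replicate 3 had 808 of the monocyte gene *Ly6c2*, which had at most 181 in the others. Without WT replicate 4, limma called 304 genes higher and 265 lower, in place of 167 and 166, and without WT replicate 3 it called 102 and 105. The part of these markers in the values of the members was not tested.

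Promoters of 6 members were taken by symbol from a RefSeq table of build GRCm38.p6 (*Tgfb1*, *Tgfbr1*, *Tgfbr2*, *Eng*, *Smad3* and *Ski*, with 7 windows). No window of *Tgfbr3*, *Smad2*, *Smad4* or *Smad7* was searched. The member counts below therefore do not cover these genes, which include *Smad7*, the member that was called. The 250 bases before the gene start were searched on both strands for GAAA repeated after any 2 bases, the pattern that IRF proteins bind, and for CAGAC, which holds the letters of the SMAD-binding element. The GAAA repeat was in 0 of the 7 member windows, where 2.98% of 32851 windows of all genes held it. CAGAC was in 3 of the 7 windows (*Eng*, *Tgfbr1* and *Tgfbr2*), where 42.2% of all windows held it. The windows of *Tgfb1* and *Tgfbr2*, which did not overlap between genotypes and whose differences had opposite signs, are shown with that of the target gene *Tgfbi*, the pathway gene with the smallest adjusted *P*, with matches in capitals. They lie at chr7:25686752-25687001 (plus strand), chr9:116175364-116175613 (minus strand) and chr13:56609336-56609585 (plus strand) of GRCm38.p6.
Tgfb1: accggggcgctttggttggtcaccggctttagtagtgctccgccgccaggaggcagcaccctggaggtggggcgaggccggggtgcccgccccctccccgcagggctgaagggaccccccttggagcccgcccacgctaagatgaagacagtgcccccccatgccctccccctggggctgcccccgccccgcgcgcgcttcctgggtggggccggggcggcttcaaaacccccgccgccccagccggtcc
Tgfbr2: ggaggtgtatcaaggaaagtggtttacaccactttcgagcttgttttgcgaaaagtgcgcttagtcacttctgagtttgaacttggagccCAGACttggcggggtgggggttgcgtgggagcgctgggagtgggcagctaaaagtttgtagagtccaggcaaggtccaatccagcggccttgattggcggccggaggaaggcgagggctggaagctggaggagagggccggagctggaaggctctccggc
Tgfbi: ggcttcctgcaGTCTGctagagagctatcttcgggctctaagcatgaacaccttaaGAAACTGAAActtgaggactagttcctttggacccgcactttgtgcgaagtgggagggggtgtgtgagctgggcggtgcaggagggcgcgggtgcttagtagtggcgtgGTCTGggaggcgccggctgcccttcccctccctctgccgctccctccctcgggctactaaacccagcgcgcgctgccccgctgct
The window of *Tgfb1* held neither motif, that of *Tgfbr2* held CAGAC, and that of *Tgfbi* held GAAACTGAAA and the reverse complement of CAGAC at 2 places. A match describes letters only and is not evidence of binding.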

How the data were processed

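SMART-Seq v4 was used for cDNA and Nextera XT for libraries, without molecular identifiers, so reads are not independent molecules. Per the submitters' processing notes and the methods, reads were trimmed with Trim Galore, aligned with HISAT2 to mm39 and counted per gene with Htseq-count; annotation and strand setting are not given in the sources used here. The deposited values are a signal, that is, reads per gene after division by the library's DESeq2 size factor. In every library 100% of values were whole multiples of 1 step (within 0.02 of a read), so reads were recovered. Mice were grouped by their labels. Libraries of a genotype differed by more than counting noise (chi-square per gene at least 16.0).

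limma 3.58.1 in R 4.3.3 (lmFit, eBayes with an intensity trend) was fitted to log2(normalized count + 1), which understates changes of low genes, with Benjamini-Hochberg adjustment over all tested genes. edgeR 4.0.16 and DESeq2 1.42.0 on recovered reads were alternatives, and limma called 167 genes higher and 166 lower, edgeR 162 and 161, and DESeq2 295 and 209. All were tested on simulated data. Exact permutation tests (two-sided) were used for single values. Gene lengths were those of GENCODE vM1 transcripts with the same symbol (10 of 10 members), and overlapping genes from a gene table of GRCm38.p6. The members and lists were chosen with earlier results of these data known. Genes were named by rule: *Irf1*, the members, the called genes of each list and those with the smallest *P* up to 3 a list, the 3 genes most like the member with the largest rise and fall, and the most abundant and defining markers. Genes named outside it are said to be so. Other settings tried were the pseudocount, the filter, the trend, 2 other scalings, a replicate block, each library left out and no fold change threshold. A library split term, the sign of principal component 1, was chosen after seeing the data.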

Additional observations from a re-analysis of the deposited data

How the results depend on the processing

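Both the direction of a member's fold change and whether it was called stayed the same in 156 of 180 fits of 10 members under 18 alternatives. *Smad7* lost its call in 8, so that limma called 0 members higher without the filter on low values, without the trend and with the library split term (chosen after seeing the data; log2 fold change 0.56, adjusted *P* = 0.0606), and between 0 and 1 with a library left out, while edgeR with no filter called 1. Members within about 0.1 of 0 changed sign 16 times. *Smad2* was at 0.0424 under quantile normalization, 0.00743 in edgeR with no filter, 0.0609 with the library split term, and between −0.0886 and 0.0397 with a library left out. *Tgfbr3* was at −0.0101 under median centring and between −0.0831 and 0.107 with a library left out, and *Smad4* was at −0.0105 and between −0.0197 and 0.06. *Smad3* lay between −0.0415 and 0.107 and *Tgfbr1* between −0.0276 and 0.2 with a library left out. *Tgfb1* stayed between −0.43 and −0.28 (adjusted *P* between 0.0129 and 0.347) and *Tgfbr2* between 0.26 and 0.40 (between 0.0177 and 0.327). The count of genes called higher was 14 in limma with no filter, 235 in edgeR with no filter, 7 with no trend, 295 in DESeq2, 301 with no fold change threshold and between 83 and 304 with a library left out, and that called lower was 36 in limma with no filter, 202 in edgeR with no filter, 33 with no trend, 260 with no fold change threshold and between 105 and 265 with a library left out. The causes were not tested, beyond what fewer samples or no threshold imply. The labels do not say whether equal replicate numbers pair mice. Same-numbered libraries correlated in their deviations across genes at −0.094 (replicate 2), 0.246 (replicate 3) and 0.147 (replicate 4). Libraries with different numbers correlated at between −0.326 and 0.251, so these values cannot decide whether the libraries are paired. With the replicate block limma called 219 genes higher and 196 lower, and 1 member higher and 0 lower. *Mmp2*, *Mmp14*, *Bmp4*, *Tgfbi* and *Sparc* were also not called by limma without the filter or the trend, at unchanged log2 fold changes, but edgeR with no filter called all 5. *Smad7* rests on 492 to 1019 reads a library.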
